A study of Sus scrofa with 9 samples.

Results

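Endothelial cells of the pig coronary artery, which form its inner lining, were compared after 2 histories that both involve renewed growth. Passage 4 cells were coronary endothelial cells kept in primary culture and passaged every week up to passage 4, a stage that the labels call senescent. Regenerated cells had regrown over a vessel wall stripped of its endothelium in the living animal, and were then scraped off and cultured with no further passage. Each group had 3 arrays, so the comparison used 6 of the 9 arrays of the series. The remaining 3 arrays held passage 1 cells, grown for 1 week, which served here as a common reference point and in the estimate of the spread. All cells were collected at basal condition, without an added agent, and total RNA was hybridised to Affymetrix porcine arrays, 1 array per sample. The members of each group were taken from the sample titles, and all probe sets other than Affymetrix controls were considered. Whether the 3 arrays of a group stand for 3 animals or cultures is not stated in the labels, so the p-values reflect array-to-array spread that may be technical. Neither the strain, sex and age of the pigs nor the time allowed for regrowth is given in the labels used here. The comparison therefore joins several differences that cannot be told apart: passage number, growth in a dish or on the vessel wall, and the RNA input, which was 1 ug for passage 4 and 0.5 to 1 ug for regenerated cells.

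Serial passaging drives cultured cells toward replicative arrest, in which cyclin-dependent kinase inhibitors such as p21 and p27 hold the cell cycle and secreted matrix and inflammatory factors often change. Endothelium that regrows after denudation closes the surface by migration and division, and regenerated coronary endothelium of the pig is known for impaired nitric oxide-dependent relaxation. Signals of the TGF-beta family, matrix enzymes and fatty acid binding proteins are all known to change as endothelial cells age or are injured.

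The arrays of both groups differed in a technical property before any gene of the cells was considered. The spike-ins dap and thr, transcripts of bacterial genes, are added to the RNA in known form, and probe sets near their 5' and 3' ends show how far labelling ran along a transcript. The 5' minus 3' log2 signal of these spike-ins was -2.15, -1.83 and -1.87 on the passage 4 arrays, against -4.56, -5.03 and -5.64 on the regenerated arrays. Pig actin showed the same order, at -0.35, -0.54 and -0.45 for passage 4 and -1.66, -2.16 and -2.78 for regenerated cells. Of the passage 1 arrays, array 1 lay with passage 4 at -2.04, and arrays 2 and 3 lay with the regenerated cells at -5.43 and -4.64. The arrays thus fell into 2 kinds of labelling with a gap of 2.41 between them, and no kind held both passage 4 and regenerated arrays. Labelling kind and group can be separated only through the passage 1 arrays, of which 1 is of the first kind and 2 are of the second. A kind-adjusted difference is therefore given beside the plain one for most of the called genes named and for the medians of gene lists. It equals the plain difference minus the difference between passage 1 array 1 and the mean of passage 1 arrays 2 and 3, and rests on these 3 arrays. Across tested probe sets the correlation of log2 signals was 0.969 to 0.974 within passage 4, 0.950 to 0.971 within regenerated cells, and 0.898 to 0.929 between the groups.

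**Figure D1:**
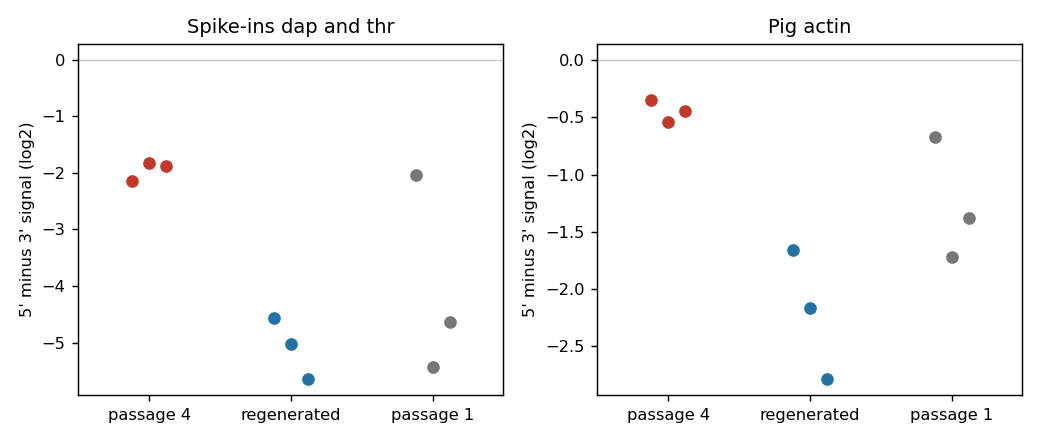
Log2 signal of 5' probe sets minus that of 3' probe sets on each array, for the spike-in transcripts dap and thr (left) and for pig actin (right), with 1 point per array. For the spike-ins, passage 4 arrays lie between -2.15 and -1.83 and regenerated arrays between -5.64 and -4.56, while the passage 1 arrays divide between both ranges.

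Most endothelial identity genes gave signal in both groups, though some defining ones were dim. Of 38 endothelial identity genes with a probe set, 30 lay above the array median on every passage 4 array and 31 on every regenerated array. For 22 smooth muscle markers these counts were 14 and 16, and for 16 fibroblast markers 6 and 7. Such counts therefore do not measure how pure the cells were. CDH5, the VE-cadherin of endothelial junctions, gave signals of 9924, 9106 and 8524 at passage 4 and of 10763, 8562 and 11246 in regenerated cells. PECAM1, the platelet endothelial adhesion molecule, gave 7343, 8938 and 9079 against 7771, 5519.6 and 7651. Both genes overlapped between groups, with log2 differences of -0.14 (95% interval -0.44 to 0.16) and 0.29 (-0.06 to 0.64). KDR, FLT1 and VWF, also markers of endothelium, did not exceed the array median on any of the 6 arrays. Their highest signals there were 19.7, 73.3 and 52.1. Most blood cell markers were near the floor: 3 of 24 leukocyte markers lay above the array median on every passage 4 array and 3 on every regenerated array, and PTPRC, the common leukocyte antigen, ran from 3.80 to 21.9 over all 6 arrays.

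In the plain fit with limma, 322 genes were higher at passage 4 and 268 were higher in regenerated cells at a Benjamini-Hochberg adjusted p under 0.05, of 5494 genes read from their brightest tested probe set. These are 5.86% and 4.88% of the genes, and 10.7% in either direction. At an unadjusted p under 0.05 the shares were 14.5% and 12.2%. Differences here are on the log2(signal + 16) scale, passage 4 minus regenerated, and understate the change of dim genes. Centring every array on its median moved the median gene from 0.01 to -0.12 and turned the split to 232 genes higher at passage 4 and 365 higher in regenerated cells, so 38.9% of calls were higher at passage 4 in place of 54.6%. With quantile normalization the split was 351 to 303. The groups did not overlap for 2007 genes, 36.5% of those tested. The groups also differ in labelling kind, and its part in this count was not tested. Of the 590 genes called, 583 kept their direction in the kind-adjusted fit and 298 stayed at a difference of at least 1, but only 10 passed the threshold there. The kind-adjusted fit called 6 genes higher at passage 4 and 7 higher in regenerated cells (0.109% and 0.127%), with a median standard error of 0.44 against 0.27 in the plain fit. A total of 194 called genes also passed with each of the 6 arrays left out in turn. Leaving out regenerated array 1 gave 395 genes higher at passage 4 and 282 higher in regenerated cells. Leaving out any other of the 6 arrays lowered these counts by over 1.5 times, to between 138 and 170 and between 125 and 168, the lowest without regenerated array 3.

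Of the called genes, 42 had a group with all 3 arrays at or under the array's 40th percentile of signal (37.2 to 49.2), which is also the limit of the filter, and 23 of these were higher at passage 4. Such a gene entered the test through its other arrays, so its fitted difference is not a measured size. For those named, the text gives the bright group's geometric mean over that limit as "at least N-fold", beside the adjusted p. FABP4, FAP and PRELP exceeded the limit on the regenerated arrays alone, so they passed the filter only through the group where they were high. Their p-values and calls are no independent support for a difference. Other named genes, such as F3, ASPN and MCM4, had some arrays of 1 group under that limit, and their fitted sizes are uncertain as well.

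The brightest probe set of each gene was used because dimmer ones leaned strongly one way. Over all tested probe sets, named or not, 8.14% were called higher at passage 4 and 4.35% higher in regenerated cells. Of 2177 dimmer probe sets of named genes, 472 were called higher at passage 4 and 31 higher in regenerated cells, and their median difference was 0.37 against 0.01 for the brightest. In passage 1 cells the same dimmer probe sets were brighter on array 1 than on arrays 2 and 3 by a median of 0.12, against -0.05 for the brightest. The part of labelling in this asymmetry was not tested.

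**Figure D2:**
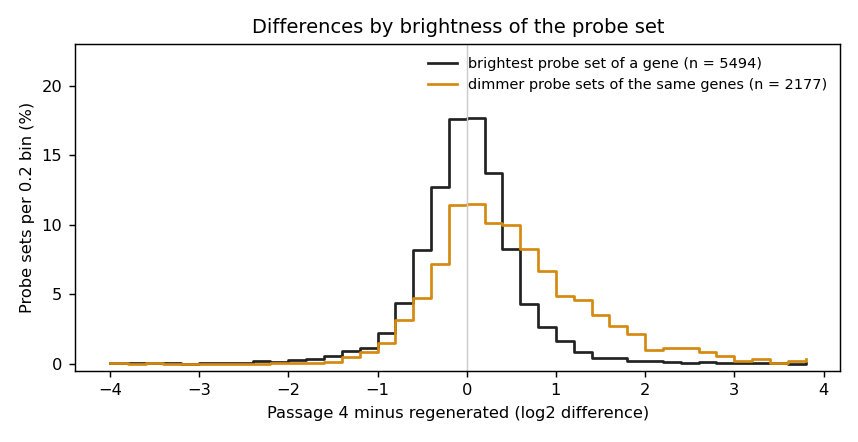
Distribution of the log2 difference, passage 4 minus regenerated, over the 5494 brightest probe sets of genes and the 2177 dimmer probe sets of the same genes, as the percentage of probe sets in bins 0.2 wide, with values beyond 4 placed in the end bins. The brightest probe sets centre on 0.01, whereas the dimmer ones have a median of 0.37 and a tail toward passage 4.

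Genes of the cell cycle formed a one-sided group. All 37 measured members were higher at passage 4 than in regenerated cells on average, 24 of them passed the limma threshold (5.86% of all genes) and 0 passed in the other direction, where 0 also had an unadjusted p under 0.05. Their median difference was 0.93, against 0.01 over all 5494 genes, and the passage 4 arrays lay above the regenerated arrays with no overlap for 31 of the 37 (19.2% of all genes). With median centring 36 of 37 were higher and 20 passed. The cells that the labels call senescent thus had the higher signals of mitotic genes.

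CCNA2, the cyclin of DNA synthesis and entry into mitosis, gave signals of 274, 239.5 and 321 at passage 4 and of 72.9, 56.3 and 39.1 in regenerated cells. The lowest passage 4 array lay above the highest regenerated array. The difference was 2.05 ± 0.28 (SE; adjusted p 0.0019 with limma), or 1.45 when adjusted for labelling kind. CCNB1, the cyclin that drives mitosis, stood at 3987, 3844 and 3752 against 2412, 1604 and 1002, a difference of 1.29 ± 0.26 (adjusted p 0.0096), or 1.56 kind-adjusted. Its regenerated arrays were widely spread, and array 1 came nearest to passage 4. AURKB, a kinase of chromosome segregation, stood at 902, 778 and 766 against 385, 242 and 257, with a difference of 1.45 ± 0.25 and a kind-adjusted one of 2.07. AURKA, the kinase of the spindle poles, differed by 1.51 (2.30 adjusted), CCNB2 by 1.40 (1.62), the kinetochore subunit NUF2 by 1.47 (2.08) and BIRC5, the survivin of the chromosome passenger complex, by 1.29 (1.54). All of these passed with each array left out. TOP2A, which untangles DNA before division, differed by 0.91 (1.02 adjusted), and its adjusted p rose to 0.0513 without passage 4 array 3 and to 0.0557 without regenerated array 3. HMMR, a hyaluronan-binding protein of the spindle, was at least 2.82-fold higher at passage 4 and lost its call without passage 4 array 2 or 3 or regenerated array 3 (adjusted p up to 0.0587). Of the 24 calls, 13 held with each array left out, and the number of calls in these fits ran from 14 to 28.

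The genes that copy DNA followed the same direction. All 33 measured members of the DNA replication and nucleotide list were higher at passage 4 on average, 18 passed in limma and 0 passed the other way, also at an unadjusted p, with a median of 0.97. With quantile normalization or median centring 32 of the 33 were higher, and 17 and 13 passed. MCM4, a subunit of the replicative helicase, gave 471, 339 and 418 at passage 4 and 117, 32.7 and 2.45 in regenerated cells, a difference of 3.10 ± 0.60 (adjusted p 0.0080), or 2.84 kind-adjusted. Its regenerated arrays differed more from each other than its passage 4 arrays did. TYMS, the thymidylate synthase that supplies a DNA precursor, stood at 3516, 3865 and 3504 against 1059.8, 426 and 395. Its plain difference of 2.65 ± 0.45 fell to 0.94 when adjusted for kind, since passage 1 array 1 was also bright at 2303 against 665 and 727. ASF1B, a histone chaperone, differed by 1.58 (2.26 adjusted), the ribonucleotide reductase subunit RRM1 by 1.04 (0.50) and the repair protein FANCD2 by 1.17 (1.03), and each passed with any array left out. MCM5 and MCM3, of the same helicase as MCM4, differed by 1.75 and 1.38 (2.80 and 2.21 adjusted) and CHAF1A, a chromatin assembly factor, by 1.62 (2.23). These 3 calls were lost in 5, 5 and 4 of the 6 fits that left out an array, with adjusted p up to 0.0960. Over the list, 6 of the 18 calls held in all 6 fits, and the number of calls in these fits ran from 6 to 21.

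Adjusting for labelling kind left the direction of both lists as it was. All 37 cell cycle genes and all 33 replication genes stayed higher at passage 4, with medians of 1.20 and 1.23, while median centring without that adjustment left 36 and 32 higher. In the kind-adjusted limma fit 0 members of either list passed at the adjusted threshold, while 27 and 24 were higher at passage 4 at an unadjusted p under 0.05 (11.5% of all genes) and 0 were lower (6.33%). Against passage 1, the median cell cycle gene was 0.71 higher at passage 4 and -0.21 in regenerated cells. Of the 37, 12 rose from passage 1 to passage 4 (1.87% of all genes rose), and 0 changed between passage 1 and regenerated cells in limma at the adjusted threshold, where 1 rose and 2 fell at an unadjusted p under 0.05. These comparisons share the passage 1 arrays.

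**Figure D3:**
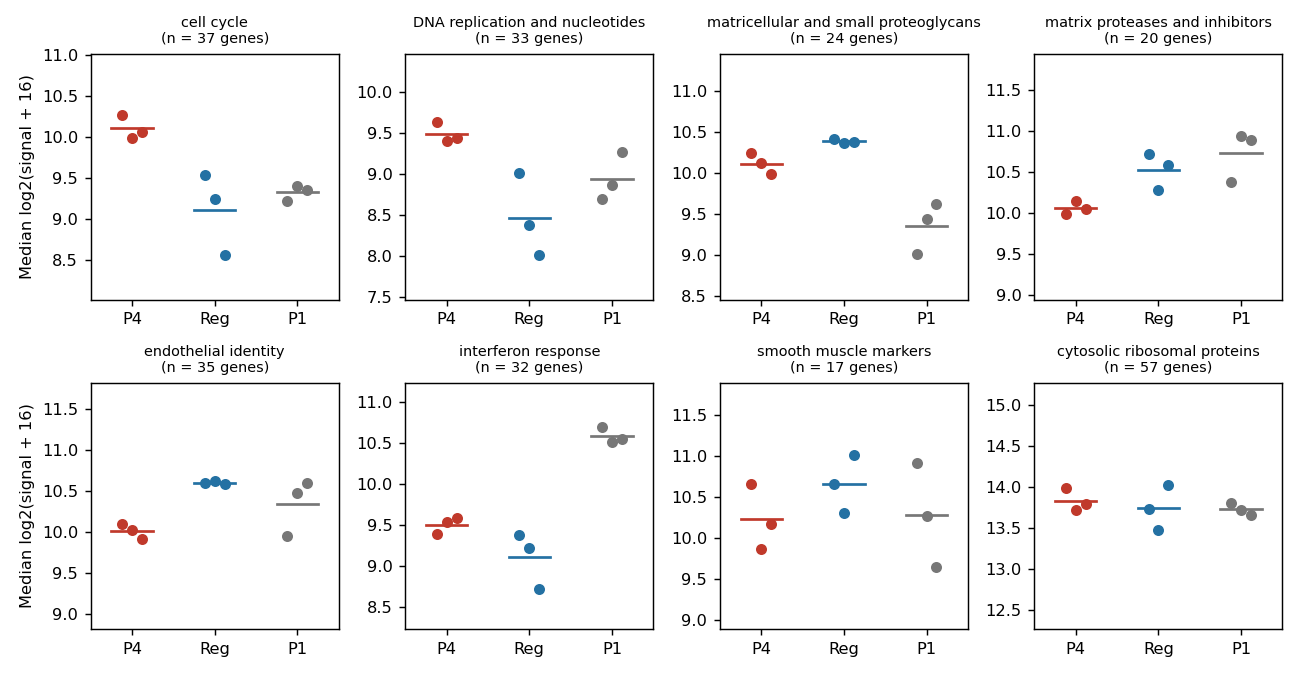
Median log2(signal + 16) over the measured genes of 8 lists on each array, for passage 4 (P4), regenerated (Reg) and passage 1 (P1) cells, with 1 point per array and a line at the mean of 3. The axes share a span but not a range, and the cell cycle and DNA replication panels show every passage 4 array above every regenerated array.

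Genes that hold or mark arrest differed in both directions. Of 30 measured senescence and arrest genes, 4 were called toward passage 4 and 3 toward regenerated cells (5.86% and 4.88% of all genes). The list's median of 0.08 turned to -0.05 with median centring and to -0.01 with the kind adjustment. The list joins inhibitors of the cell cycle with LMNB1, whose loss marks senescence, so its median does not measure arrest. CDKN1B, which encodes the kinase inhibitor p27, gave 449.8, 578 and 619 at passage 4 and 2301, 1265 and 1162 in regenerated cells. The groups did not overlap, and the difference was -1.44 ± 0.28 (adjusted p 0.0079), or -1.92 kind-adjusted. CDKN1A, which encodes p21, was also lower at passage 4, at 3814, 4051 and 3954 against 5498, 5513 and 7642. That difference of -0.64 ± 0.19 had an adjusted p of 0.0442, shrank to -0.12 when adjusted for kind, and lost its call in 5 of the 6 fits that left out an array (adjusted p up to 0.154). GADD45A, a growth arrest gene induced by DNA damage, differed by -0.86 (-1.36 adjusted) and lost its call without passage 4 array 3 or regenerated array 2 (adjusted p 0.0649 and 0.0600). PLK2, a stress-induced kinase, was higher at passage 4, at 2858, 2796 and 2884 against 1526, 1070.4 and 1142, with a difference of 1.20 ± 0.17 (1.34 adjusted). LMNB1, the lamin whose loss is used as a mark of senescence, stood at 621, 822 and 1018 at passage 4 and at 451, 131 and 88.7 in regenerated cells. Its difference of 2.09 ± 0.46 (2.41 adjusted) lost the threshold without passage 4 array 3 or regenerated array 2 or 3 (adjusted p up to 0.0644). CDKN2C, an inhibitor of CDK4 and CDK6, was at least 2.36-fold higher at passage 4, was at 0.50 when adjusted for kind, and lost its call without passage 4 array 3 or regenerated array 2 (adjusted p 0.0511 and 0.0509). BAX, a promoter of cell death, differed by 1.19 and 0.51, and its call was lost in 5 of the 6 fits. The gene for p16 (CDKN2A) had no probe set under that symbol.

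A feedback gene of TGF-beta signalling was the second largest difference toward regenerated cells. PMEPA1, a membrane protein that TGF-beta induces and that restrains SMAD signalling, gave 269.9, 140.1 and 212 at passage 4 and 4584, 4239 and 3586 in regenerated cells. Every regenerated array exceeded every passage 4 array by a wide margin. The difference was -4.25 ± 0.39 (adjusted p 0.00035), and it was -2.80 when adjusted for kind (adjusted p 0.0504). All 3 of its probe sets agreed in sign, from -4.25 to -2.0. Passage 1 cells, at 98.4, 224 and 396, gave a difference of -0.05, passage 4 minus passage 1. FST, the follistatin that binds and blocks activins, ran the other way, at 1353, 1362 and 1008 at passage 4 and 68.3, 195 and 114 in regenerated cells. Its difference was 3.23 ± 0.39 (adjusted p 0.0012), and it grew to 4.40 with the kind adjustment, where it passed as well (adjusted p 0.0228).

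Of 25 measured TGF-beta and BMP genes, 1 was called toward passage 4 and 4 toward regenerated cells (5.86% and 4.88% of all genes). The list's median was -0.39 and became -0.16 after adjustment. ENG, the endothelial co-receptor endoglin, stood at 1358, 1231 and 1405 against 6169, 3168 and 3634, a difference of -1.63 ± 0.38. It shrank to -0.20 with the kind adjustment and lost its call without passage 4 array 1 or 2 (adjusted p 0.0516 and 0.0601). The receptor TGFBR1 and the activin-binding FSTL3 differed by -0.76 and -1.07, with adjusted p of 0.0345 and 0.0439, and were at -1.12 and -0.05 after adjustment for kind. The TGFBR1 call was lost in 5 of the 6 fits that left out an array and the FSTL3 call in all 6, with adjusted p up to 0.154, and the other TGFBR1 probe set was at 0.04.

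Matrix genes were mostly higher in regenerated cells, though the largest member went the other way. Of 24 measured matricellular proteins and small proteoglycans, 8 were called toward regenerated cells and 3 toward passage 4 (4.88% and 5.86% of all genes). On average 17 of 24 were lower at passage 4, with a median of -0.79 (-0.54 adjusted). ASPN, asporin, a small leucine-rich proteoglycan that binds collagen and TGF-beta, gave 154, 38.8 and 33.9 at passage 4 and 1566, 2199 and 1479 in regenerated cells. The difference was -4.49 ± 0.49 (adjusted p 0.00074) and grew to -5.97 with the kind adjustment (adjusted p 0.0156), the largest in that fit among called genes. THBS2, a thrombospondin that curbs vessel growth, stood at 46.8, 52.9 and 63 against 437, 354 and 254, a difference of -2.35 ± 0.31, or -1.47 adjusted. AEBP1, a collagen-binding protein, differed by -1.58 and the collagen cross-linking enzyme LOXL1 by -1.28, and both kept most of that size after adjustment (-1.43 and -1.52). The elastic fibre proteins FBLN1 and EFEMP2 differed by -1.67 and -1.26, and by -0.59 and -1.0 after adjustment, where passage 1 array 3 read 2879 for FBLN1 against 754 and 908. PRELP, a proteoglycan of basement membranes, was at least 1.63-fold higher in regenerated cells and entered the test through the regenerated arrays alone. The calls of PRELP, FBLN1 and EFEMP2 were lost in 1, 5 and 3 of the 6 fits, with adjusted p up to 0.0794.

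POSTN, periostin, a matricellular protein of injured and mesenchymal tissue, stood at 5058, 9212 and 4892 at passage 4 and at 13.1, 1500.0 and 60.2 in regenerated cells. Regenerated array 2 lay far above the other two, and the groups still did not overlap. The difference was 5.35 ± 1.04 (adjusted p 0.0081; 4.72 kind-adjusted) and passed with each array left out. THBS1, the thrombospondin that activates latent TGF-beta, was higher at passage 4 by 2.08 but by 0.32 after adjustment, its call was lost in 4 of the 6 fits, and only 3 of its 5 probe sets had that sign. LOX, the founding lysyl oxidase, differed by 1.46 and by -0.01 after adjustment, and was lost in all 6 fits (adjusted p up to 0.140). Among 15 collagen and basement membrane genes, 3 were called higher in regenerated cells and 0 higher at passage 4 in limma (5 and 1 at an unadjusted p under 0.05, against 12.2% and 14.5% of all genes), with a median of -0.35 that became -0.03 after adjustment. COL8A1, a collagen of vessel walls, gave 3146, 2656 and 2504 against 8513, 5998 and 6644, a difference of -1.33 ± 0.16 (-1.36 kind-adjusted), and 3 of its 4 probe sets agreed in sign. COL5A1, of fibrillar collagen, differed by -1.10 and by -1.19, with 2 of 4 probe sets agreeing. SPARC, a collagen-binding glycoprotein, differed by -0.39 (-0.55 adjusted) and lost its call in all 6 fits, and its other probe set was at 1.92. FN1, fibronectin, gave 17321, 12587 and 10360.0 against 18195, 15899 and 22318, and did not pass (-0.50, 95% interval -0.89 to -0.11, adjusted p 0.0872), though it did with quantile normalization at -0.47. COL1A2, of fibrillar collagen, did not pass at 0.10 (-0.44 to 0.63), and was at -0.03 with quantile normalization, median centring or the kind adjustment.

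Several enzymes that cut matrix, and their inhibitors, were lower at passage 4. Of 20 measured members, 8 were called higher in regenerated cells (4.88% of all genes) and 0 higher at passage 4 in limma, and the median was -0.69, or -0.28 after adjustment. At an unadjusted p under 0.05 these counts were 11 and 1, where 12.2% and 14.5% of all genes passed. MMP2, the gelatinase, gave 938, 1746 and 879 at passage 4 and 4951, 3899.8 and 4663 in regenerated cells, with no overlap. Its difference was -1.97 ± 0.26 (adjusted p 0.0016), and the adjusted one was -1.91. Passage 1 cells, at 3913, 5171 and 3217, were near the regenerated level, and its passage 4 minus passage 1 difference was -1.82 (adjusted p 0.0040). CTSS, an elastin-degrading cathepsin that also trims class II antigens, stood at 1581, 1701 and 1929 against 3988, 4278 and 4183, a difference of -1.25 ± 0.16, or -1.55 adjusted. The collagen-degrading cathepsin CTSK differed by -0.98 and by -0.82. CTSD, the aspartic cathepsin of lysosomes, differed by -1.56 but by -0.19 after adjustment. TIMP3 and TIMP2, which block metalloproteinases, differed by -1.41 and -1.21 (-0.60 and -0.65 adjusted), and PLAT and CST3 by -0.98 and -0.60 (-0.20 and -0.35 adjusted). These 4 calls were lost in 4, 2, 5 and 4 of the 6 fits, with adjusted p up to 0.114. TIMP1 did not pass at -0.68 (95% interval -1.24 to -0.13), nor did MMP7 at -1.47 (-2.94 to 0.0045), which passed at the same value when only the 6 arrays were fitted.

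Some markers of smooth muscle cells and fibroblasts were also higher in regenerated cells, while others were higher at passage 4. Of 17 measured smooth muscle markers, 3 were called higher in regenerated cells and 0 higher at passage 4 in limma, with a median of -0.39 (-0.57 adjusted). At an unadjusted p under 0.05 the counts were 5 and 1, where 12.2% and 14.5% of all genes passed. PLN, the phospholamban of muscle calcium stores, gave 98.4, 147 and 66.9 against 270.3, 480.1 and 511, a difference of -1.87, or -2.55 adjusted. The calcium-activated channel subunit KCNMB1 stood at 18.1, 2.12 and 3.11 against 48.9, 62.5 and 68.2, at least 1.23-fold higher in regenerated cells. CNN1, the calponin of contractile muscle, differed by -2.53 (-4.86 adjusted) and lost its call with any array left out (adjusted p up to 0.118). ACTA2, smooth muscle actin, was erratic, at 10501, 484 and 1140.1 at passage 4, 10021, 12254 and 18924 in regenerated cells and 13189, 2519 and 196 at passage 1, and did not pass (-2.86, 95% interval -5.68 to -0.04, adjusted p 0.168). TAGLN, another contractile marker, did not pass at -0.36 (-0.93 to 0.21). Among 11 fibroblast markers, 3 were called higher in regenerated cells and 2 at passage 4 (4.88% and 5.86% of all genes). The 3 were FAP, THY1 and FBLN1, and the 2 were POSTN and LOX. Of these, FBLN1, POSTN and LOX are also among the matrix genes described above. FAP, a serine protease of activated fibroblasts, gave 33.3, 38.0 and 0.693 against 267, 484 and 315, at least 7.12-fold higher (adjusted p 0.0017), and entered the test through the regenerated arrays alone. THY1, a surface glycoprotein of fibroblasts, gave 44.7, 67.8 and 159 against 336, 558 and 573 (-2.35 ± 0.42; -2.08 adjusted). The summed signal of the smooth muscle markers ran from 57375 to 78070 at passage 4 and from 68320 to 93466 in regenerated cells, and that of the fibroblast markers from 26433 to 29731 and from 21271 to 27626. VIM alone made up most of the fibroblast sum on each array, at 16259 to 17243 and 13755 to 21469. POSTN added 4892 to 9212 at passage 4 and 13.1 to 1500 in regenerated cells, so this sum does not measure fibroblast content. Several defining markers of both types were low in both groups. MYOCD, DES and COL3A1 did not exceed 47.6 on any of the 6 arrays, DCN, decorin, ran from 50.9 to 189.5 at passage 4 and from 21.1 to 54.5 in regenerated cells, and LUM, lumican, stood at 659.9, 30.1 and 1014 in regenerated cells. The part of such cells in the matrix results was not tested, and in bulk RNA fewer cells of a type and less RNA per cell cannot be told apart.

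Endothelial identity genes leaned toward regenerated cells in the plain fit. Of 35 measured, 6 were called higher in regenerated cells and 1 higher at passage 4 (4.88% and 5.86% of all genes). The list's median was -0.27. With the kind adjustment the median was 0.15 and 21 of 35 were higher at passage 4, so the direction of the list depended on the adjustment. AQP1, the water channel of endothelium, gave 156, 104 and 141 at passage 4 and 1531, 1408 and 1456 in regenerated cells, a difference of -3.32 ± 0.52 (adjusted p 0.0034; -1.84 kind-adjusted). Passage 1 was divided, at 273, 355 and 1744. NOTCH4, the endothelial Notch receptor, stood at 603, 455 and 354 against 1445, 1205 and 1623, a difference of -1.59 ± 0.29 and -0.63 after adjustment. The Notch ligand JAG1, the arterial ephrin EFNB2 and the kinase BMX differed by -0.77, -1.08 and -1.90 (-0.72, -0.65 and -2.64 adjusted), and lost their calls in 2, 4 and 2 of the 6 fits (adjusted p up to 0.0944). TSPAN7, a tetraspanin, was the exception, at 1068, 683 and 1058 at passage 4 and 85.0, 135 and 92.4 in regenerated cells. Its difference of 2.98 ± 0.25 (adjusted p 0.00024) was 3.16 after adjustment (adjusted p 0.0288). The angiopoietin receptor TEK did not pass at 0.45 (95% interval -0.15 to 1.05), and VWF, von Willebrand factor, was dim on both of its probe sets. The brighter one, which was not tested, read 22.8 to 39.3 at passage 4 and 39.5 to 52.1 in regenerated cells, and the tested one 2.31 to 12.4 and 15.7 to 60.2, which did not pass. VWF was the only gene whose brightest probe set was left out by the filter.

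Genes that set vessel tone gave few calls, with adrenomedullin the widest. Of 24 measured, 2 were called higher at passage 4 and 0 higher in regenerated cells in limma, where 5.86% and 4.88% of all genes were called. At an unadjusted p under 0.05 the counts were 2 and 2, against 14.5% and 12.2% of all genes. The list's median was -0.07, or -0.21 adjusted. NOS3, the endothelial nitric oxide synthase, gave 1013, 728 and 684 at passage 4 and 1749, 1095 and 1274 in regenerated cells. The groups did not overlap, yet the difference of -0.75 (95% interval -1.28 to -0.21) had an adjusted p of 0.0686 and was -0.11 after adjustment. It passed in the fit of the 6 arrays alone and with median centring, where it was -0.87. ADM, the vasodilator peptide adrenomedullin, stood at 2333, 3133 and 3379 against 437, 418 and 720.3, a difference of 2.48 ± 0.24 (adjusted p 0.00038), or 2.10 adjusted. Passage 1 cells had 4199, 3540.3 and 2929.7, so it was the regenerated cells that stood apart (-2.75 against passage 1, adjusted p 0.00022). ECE1, which activates endothelin, was at least 1.58-fold higher at passage 4 and lost its call in 4 of the 6 fits (adjusted p up to 0.0657), and EDN1, endothelin itself, did not pass at -0.33 (-0.74 to 0.09). PTGS1, a cyclooxygenase, did not pass at -0.18 (-1.20 to 0.83), while its dimmer probe set was at 3.04.

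Clotting genes included the third largest difference toward regenerated cells. F3, tissue factor, which starts coagulation, gave 49.4, 16.9 and 16.6 at passage 4 and 454, 1366 and 490.5 in regenerated cells. Passage 1 cells had 942, 994 and 635, so the passage 4 cells stood apart. The difference was -4.07 ± 0.42 (adjusted p 0.00056), and -4.31 after adjustment (adjusted p 0.0517). F2R, the thrombin receptor, stood at 358, 641 and 631 against 2466, 3471 and 1330.1, a difference of -2.06 ± 0.33 and -2.07 after adjustment. Here the passage 1 cells, at 399.6, 449 and 352, were near passage 4. PLAT, tissue plasminogen activator, and PROS1, the anticoagulant protein S, differed by -0.98 and -0.53 (-0.20 and -0.85 adjusted) and lost their calls in 5 of the 6 fits each (adjusted p up to 0.134). THBD, thrombomodulin, overlapped between groups at 2064, 3341 and 1578 against 2541, 4538 and 4795 and did not pass (-0.78, 95% interval -1.40 to -0.16, adjusted p 0.0949). Over 16 genes the list had 4 calls toward regenerated cells and 1 toward passage 4 (4.88% and 5.86% of all genes). The list's median was -0.11. With the kind adjustment the median was 0.17 and 9 of 16 were higher at passage 4.

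Proteins that carry lipids were split. FABP4, the fatty acid binding protein of adipocytes, macrophages and stressed endothelium, gave 2.39, 1.66 and 0.684 at passage 4, 20.6, 18.1 and 14.7 at passage 1 and 202, 154 and 269 in regenerated cells. The passage 4 values lie far under the array medians of 102 to 108, and the groups did not overlap. FABP4 was at least 4.2-fold higher in regenerated cells, the only arrays on which it exceeded the filter's limit. Its adjusted p was 0.00016, and 0.0228 with the kind adjustment, but these are no independent support, as it passed the filter only through the regenerated arrays. FABP5, its epidermal relative, ran the other way, at 1512, 1705 and 556 against 221, 271 and 263. Its difference of 2.10 ± 0.47 was 2.86 after adjustment and lost its call without passage 4 array 1 or 2 or regenerated array 2 (adjusted p 0.0582, 0.0614 and 0.0502). PPARG, the lipid-sensing nuclear receptor that induces FABP4, differed in the same direction (-1.85 ± 0.46; -2.03 adjusted), at 68.8, 38.1 and 24.2 against 306, 95.7 and 225, and its call was lost in 4 of the 6 fits (adjusted p up to 0.0909). ABCA1, which exports cholesterol, was higher at passage 4 by 1.99, or 0.80 after adjustment. Over 32 lipid genes 3 were called higher at passage 4 and 2 higher in regenerated cells (5.86% and 4.88% of all genes). Their median was 0.04, or -0.09 with median centring and 0.21 with the kind adjustment. Of the 6 measured adipocyte markers, 3 were called higher in regenerated cells (4.88% of all genes) and 0 higher at passage 4. The 3 were FABP4, PPARG and the hormone gene LEP (at least 1.76-fold, lost in 5 of the 6 fits). CFD, another of the 6, went the other way with no overlap, at 318, 224 and 240 against 120, 136 and 183, and was not called. The defining adipocyte genes ADIPOQ and LPL did not exceed 50.5 on any of the 6 arrays.

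Inflammatory genes gave calls in both directions between the groups, while both groups stood far from passage 1. Of 29 measured, 3 were called higher at passage 4 and 2 higher in regenerated cells (5.86% and 4.88% of all genes). The list's median was -0.07. With the kind adjustment the median was 0.21 and 16 of 29 were higher at passage 4. IL6 gave 174, 151 and 279.7 at passage 4 and 177, 232 and 156 in regenerated cells, against 1143, 3624 and 2297 at passage 1. The groups overlapped, and the difference was 0.06 (95% interval -0.75 to 0.88), which became -0.06 with quantile normalization or median centring. SELE, the E-selectin that slows leukocytes, stood at 188, 734 and 384 against 1077, 441 and 323 (-0.49, -1.62 to 0.64), with 2919, 7686 and 4848 at passage 1. CCL2, a monocyte attractant, differed by -0.01 (-0.29 to 0.27), VCAM1 by 0.11 (-0.23 to 0.45), ICAM1 by 0.14 (-0.26 to 0.55), CXCL8 by -0.30 (-0.62 to 0.01) and SOD2, the mitochondrial dismutase that NF-kB induces, by 0.07 (-0.73 to 0.87). The small differences of CCL2, VCAM1 and SOD2 changed sign with scaling, to 0.01 with quantile normalization and to -0.02 and -0.05 with median centring. Against passage 1, 11 of the 29 fell at passage 4 and 11 fell in regenerated cells (2.95% and 3.28% of all genes), and both comparisons use the same passage 1 arrays.

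A few immune signalling genes did separate the groups. IL7, a lymphocyte growth factor, gave 331, 413 and 1141 at passage 4 and 185, 42.8 and 41.7 in regenerated cells, a difference of 2.66 ± 0.53 (adjusted p 0.0090; 2.14 kind-adjusted). MYD88, the adaptor of Toll-like receptors, stood at 284, 272 and 199 against 83.3, 23.5 and 42.7, a difference of 2.11 ± 0.38 and 1.19 after adjustment. CXCL16 and CD40 were higher in regenerated cells, with differences of -1.24 and -0.98 (-2.05 and -0.63 adjusted), and CXCL2 was higher at passage 4 by 0.54 (0.54 adjusted). These 3 calls were lost in 2, 2 and 5 of the 6 fits (adjusted p up to 0.152), and CXCL2 also with median centring (0.42). CD59, which shields cells from complement lysis, gave 297, 813 and 422 against 1527, 1866 and 1799, a difference of -1.85 ± 0.30 and -1.75 after adjustment, with its other probe set at 0.78. It was the only one of 14 complement and acute phase genes called, where 10.7% of all genes were called.

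Interferon response genes had 2 calls of 32, both higher at passage 4, where 5.86% of all genes were called. Both were lost with an array left out: TRIM26 at least 1.42-fold (adjusted p up to 0.0592) and PSMB10 at 0.77, or 0.18 adjusted for kind (adjusted p up to 0.152). The list's median was 0.23, or -0.12 after adjustment. Both groups lay well below passage 1, with medians of -1.34 and -1.48, and 17 and 21 genes fell (2.95% and 3.28% of all genes). These 2 comparisons share the passage 1 arrays. Both class II antigen genes that passed were higher in regenerated cells. SLA-DQB1, the beta chain of pig class II, gave 118, 102 and 39.4 against 345, 1343 and 669, a difference of -2.86 ± 0.51 (adjusted p 0.0061; -1.56 kind-adjusted), and passage 1 cells had 487, 1272 and 1175. SLA-DRA differed by -2.04 (-0.92 adjusted), but was lost in 4 of the 6 fits (adjusted p up to 0.124). The median of 22 antigen presentation genes was -0.09 and became 0.11 with the kind adjustment. Of these genes, 4 were called higher in regenerated cells and 2 at passage 4 (4.88% and 5.86% of all genes). The 2 were the immunoproteasome genes PSMB10 and PSME1 (0.58; 0.27 adjusted), and neither passed with median centring. PSME1 lost its call in 5 of the 6 fits (adjusted p up to 0.0818).

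Growth factor genes differed in both directions. IGFBP2, a carrier of insulin-like growth factors, gave 2.94, 17.9 and 5.03 at passage 4 and 444, 127 and 748 in regenerated cells, with 200.2, 389 and 176 at passage 1. It was at least 7.21-fold higher in regenerated cells (adjusted p 0.0018). HTRA1, a protease that cleaves IGF carriers, differed by -0.97 (-0.54 adjusted) and IGF1 by 1.67 (1.02), and their calls were lost in 2 and 4 of the 6 fits (adjusted p up to 0.0902). AREG, amphiregulin, a ligand of the EGF receptor, stood at 6368, 6376 and 6941 at passage 4 and at 760.1, 1046 and 758 in regenerated cells. The passage 4 arrays were nearly equal and far above the other group. Its difference of 2.93 ± 0.43 (adjusted p 0.0027) became 4.94 with the kind adjustment, with the smallest adjusted p there among named genes (0.00016), because passage 1 array 1 was dim at 852 against 4035 and 3000.0. ANGPT1, the vessel-stabilising ligand of TEK, was higher at passage 4 at 67.9, 108 and 108 against 15.1, 20.2 and 28.1, at least 2.01-fold. It was the only call among 15 VEGF and angiopoietin genes, where 10.7% of all genes were called.

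Several of the genes most raised at passage 4 are known from other cell types. STMN2, a neuronal protein that destabilises microtubules, gave 5207, 1018 and 8757 at passage 4, 371, 133 and 148 in regenerated cells and 84.6, 148 and 67.6 at passage 1, a difference of 4.10 ± 0.65 (4.31 kind-adjusted). GABRA4, a subunit of the GABA-A receptor, stood at 533, 684 and 622 against 4.60, 58.2 and 20.2 (4.04 ± 0.56; 3.07 adjusted). EPB41L3, a membrane skeleton protein, stood at 2936, 3726 and 4020.4 against 162, 481 and 353, with 138, 60.1 and 116 at passage 1 (3.47 ± 0.37; 2.85 adjusted). Of 12 measured genes, the neuronal list had 3 calls toward passage 4 and 2 toward regenerated cells (5.86% and 4.88% of all genes). The latter were the glutamate transporter SLC1A1 (-1.69; -1.22 adjusted) and the growth cone protein GAP43 (-1.0; -1.59 adjusted), which lost their calls in 2 and 6 of the 6 fits (adjusted p up to 0.169).

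Protease inhibitors were among the largest differences in both directions. SERPINB2, an inhibitor of urokinase, gave 7566, 6668 and 5655 against 594, 701 and 147, a difference of 3.99 ± 0.43 (adjusted p 0.00069; 3.55 kind-adjusted), and passage 1 cells had 4426, 3194 and 3291. SERPINB7, another intracellular serpin, differed by 3.57 (2.73 adjusted). SLPI, a secreted inhibitor of leukocyte elastase that is no serpin, was higher in regenerated cells, at 17482, 15223 and 29813 against 2459, 1279.5 and 4895 (-2.99 ± 0.41; -2.47 adjusted). ALDH1A1, the retinaldehyde dehydrogenase, stood at 5995, 4203 and 6377 at passage 4 and 148, 203 and 206 in regenerated cells. Its plain difference of 4.77 ± 0.67 fell to 1.52 with the kind adjustment, since passage 1 array 1 read 871 against 69.9 and 85.0. LOC595122 differed by 3.06 (2.10 adjusted). The homeobox gene HOXA3 and the Golgi protein gene TMEM115 were at least 5.66-fold and 4.50-fold higher at passage 4.

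Among the 12 genes most raised in regenerated cells, MAP2K6, the kinase that activates p38, gave 1576, 1167 and 396 against 52.3, 36.6 and 66.6 at passage 4 and 28.1, 52.3 and 26.2 at passage 1. Its difference was -3.78 ± 0.44 (adjusted p 0.000885; -3.50 kind-adjusted). RFLNA, a regulator of filamin, stood at 300.2, 578 and 1473 against 64.1, 33.6 and 30.4 (-3.52 ± 0.54; -3.76 adjusted). CYP1A1, the monooxygenase induced through the aryl hydrocarbon receptor and by flow, stood at 1254, 1765 and 1534 against 146, 154 and 75.9, a difference of -3.48 ± 0.58. That fell to -0.89 with the kind adjustment, since passage 1 array 1 had 101 against 554 and 852. TXNIP, the thioredoxin inhibitor that responds to glucose and flow, did not pass (-0.50, 95% interval -1.36 to 0.35), and both groups lay below the 1014, 2359 and 3095 of passage 1. Of 27 shear-stress regulators 5 were called higher in regenerated cells and 1, ADM, at passage 4 (4.88% and 5.86% of all genes). The 5 were CYP1A1, PPARG, GCLC (-1.20; -1.34 adjusted), FOXO1 (-0.95; -0.43) and DUSP1 (-0.55; -0.70), and the last 3 lost their calls in 4, 2 and 5 of the 6 fits (adjusted p up to 0.174).

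**Figure D4:**
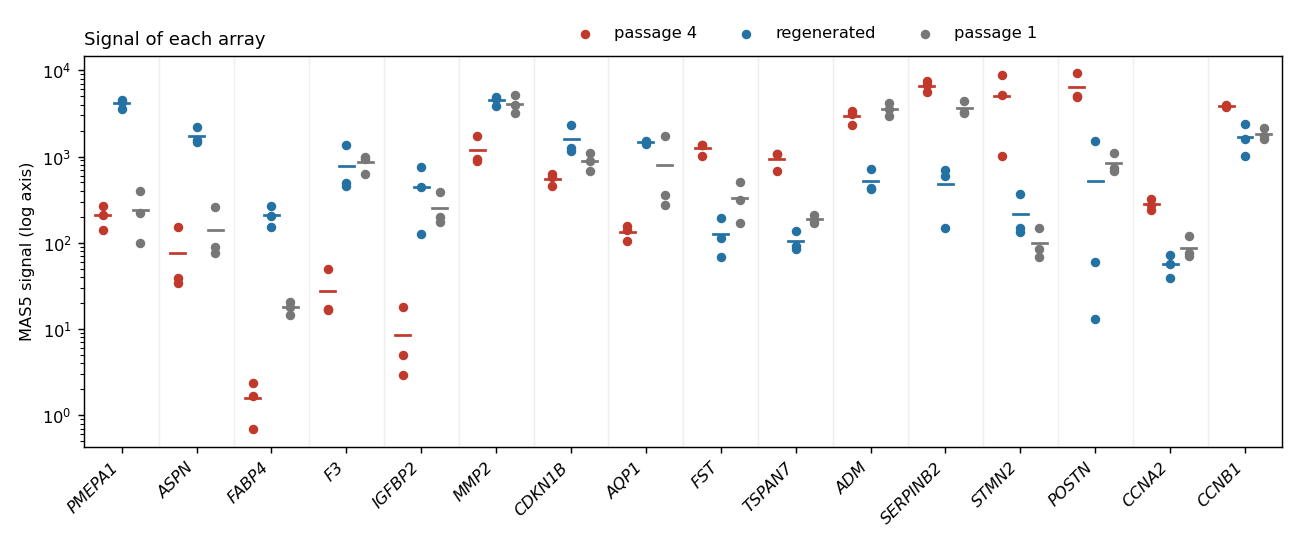
Deposited signal of 16 genes on each array, on a log axis, for passage 4, regenerated and passage 1 cells, with 1 point per array and a line at the mean of 3. The first 8 genes, PMEPA1 to AQP1, are higher in regenerated cells and the last 8, FST to CCNB1, are higher at passage 4, with no overlap between these groups.

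Only 10 genes passed the threshold both in the plain fit and with the kind adjustment. Toward passage 4 these were FST, TSPAN7, AREG and DCTPP1, and toward regenerated cells ASPN, FABP4, SDC2, TMEM158, ATP9A and MARK1. FABP4 was under the filter's limit on every passage 4 and passage 1 array, so its adjusted value is no measured size and its 2 calls are no independent support. DCTPP1, which clears surplus deoxycytidine nucleotides, stood at 1041, 896 and 1150.1 against 476, 390.1 and 398, with differences of 1.26 plain and 2.21 adjusted. SDC2, the heparan sulfate proteoglycan syndecan-2, stood at 1816, 830.0 and 927 against 4193, 5544 and 5992, with -2.20 and -3.77. TMEM158, a membrane protein induced by RAS signalling, stood at 3430.2, 1477 and 1362 against 7226, 7463 and 7686 (-1.96 and -3.73). ATP9A, a phospholipid flippase of endosomes, stood at 246, 249.8 and 214 against 748, 1060.4 and 841 (-1.82 and -2.39), and MARK1, a kinase of microtubule-binding proteins, at 284, 238 and 201 against 771, 553 and 954 (-1.57 and -2.54). The plain calls of DCTPP1 and TMEM158 were lost in 3 and 4 of the 6 fits that left out an array (adjusted p up to 0.0512 and 0.0684). The adjusted fit reads 1 passage 1 array against 2, and its standard errors hold no check on that single array. A further 3 genes, HMGA1, ODC1 and TYRP1, passed only with the adjustment. Of the 7 called genes whose direction changed, APLP2 was the furthest from 0 after adjustment, at -0.36.

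**Figure D5:**
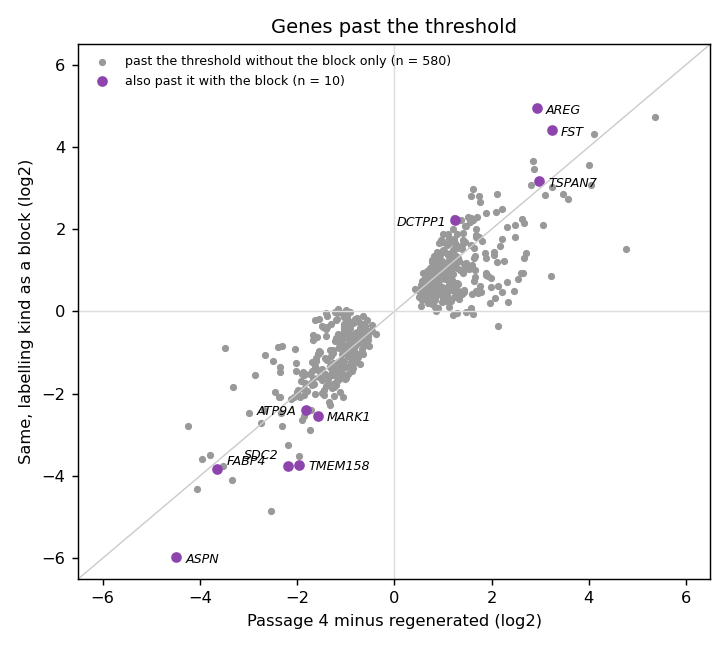
Log2 difference, passage 4 minus regenerated, of the 590 called genes in the plain fit (horizontal) against the same difference with the labelling kind as a block (vertical), with a diagonal line of equality. The 10 labelled genes pass the threshold in both fits, and 583 of the 590 lie on the same side of 0 on both axes.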

How the data were processed

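Total RNA of 9 samples was labelled with biotin and hybridised to Affymetrix porcine arrays. The authors deposited 1 linear intensity per probe set and array, made with MAS5, per the submitters' processing notes. The sources used here do not give its version, its scaling target or any detection calls. With 2% trimmed from each end, every array averaged 500.1, so no further normalization was applied. Median signals ran from 85.9 to 108, and the number of arrays limits the precision.

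From the 24123 probe sets, 124 controls were left out, and 15299 with at least 3 of 9 arrays above their own 40th percentile were tested as log2(signal + 16). KDR, COL3A1, PTPRC and KLF2 fell below this filter. All 9 arrays in 3 groups were fitted in limma 3.58.1 under R 4.3.3 (lmFit, eBayes with an intensity trend; 6 residual and 5.65 prior degrees of freedom). Two-sided p-values were adjusted by Benjamini-Hochberg over all tested probe sets, with a threshold of 0.05. The fit was tested on simulated data. The kind-adjusted fit adds the labelling kind, read from the dap and thr spike-ins, as a block.

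The platform annotation gave 1 symbol to 10069 probe sets and several to 198, and those with several were not named. Entrez identifiers of 9961 matched a RefSeq table (Sscrofa11.1), with 0 symbols altered. The 7671 named and tested probe sets stand for 5494 genes, each read from the tested probe set with the highest mean. MKI67 and PTGIS had no probe set under those symbols. Coordinates are left out, as no build was named.

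The genes named are the 12 largest called differences in each direction whose groups do not overlap, up to 6 in each direction called in both fits, up to 5 called members of each of 32 gene lists, and a panel of genes named whatever their result. Others are named where a count of 5 or fewer, or the account of a list, needed them, and were chosen after their values were seen. Members, lists and panel were chosen with earlier results of these data known. Alternatives were the pseudocount, the filter, the scaling, the trend, the arrays in the fit, the replicate number or labelling kind as a block, each array left out, a fold limit and another choice of probe set.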

Additional observations from a re-analysis of the deposited data

How the results depend on the processing

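The plain fit called 1912 probe sets (12.5%), 322 genes higher at passage 4 and 268 higher in regenerated cells. With the labelling kind as a block these became 35, 6 and 7. Leaving out 1 array at a time gave 895 to 2376 probe sets, 138 to 395 genes higher at passage 4 and 125 to 282 higher in regenerated cells. A further limit of at least 2-fold left 187 and 168 genes, and taking the probe set with the smallest p, where all of a gene's probe sets had 1 sign, gave 513 genes higher at passage 4. Pseudocounts of 1 or 64, no filter or a stricter one, both scalings, no trend and the 6 arrays alone kept all 3 counts within 1.5 times. The cause of these shifts was not tested. Arrays of equal replicate number were checked for pairing: their deviations from the group means correlated at 0.09, 0.19 and -0.08, so the numbers were not taken to pair the samples, and the replicate block gave 1626 probe sets and 273 and 224 genes. Of 138 named genes, the kind block left 27 on the same side of the threshold with the same sign. Named genes that changed sign there were LOX (-0.011), SELE (0.57), VCAM1 (-0.15), SOD2 (-0.76), COL1A2 (-0.029) and TXNIP (0.90). IL6 was at -0.062 with quantile normalization and -0.063 with median centring, and COL1A2 at -0.031 and -0.028. CCL2 was at 0.015 with quantile normalization, and VCAM1 and SOD2 at -0.015 and -0.054 with median centring. With 1 array left out, differences of both signs came for IL6 (-0.18 to 0.23), CCL2 (-0.13 to 0.10), SELE (-0.95 to 0.0013), VCAM1 (-0.062 to 0.22), SOD2 (-0.25 to 0.56), PTGS1 (-0.57 to 0.23) and COL1A2 (-0.034 to 0.18). LOX was the only one of these genes that the plain fit called.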

Other observations

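Housekeeping groups gave few calls between the groups, where 5.86% of all genes were called higher at passage 4 and 4.88% higher in regenerated cells. Of 57 cytosolic ribosomal protein genes 1 was called, RPL37, at 879.9, 851 and 956 at passage 4 and 470.2, 355 and 328 in regenerated cells (1.20 ± 0.21, adjusted p 0.0059 with limma; 1.16 kind-adjusted). The list's median was 0.09, turned to -0.04 with median centring and was 0.01 with the kind adjustment. Of 58 respiratory chain genes, SDHC and NDUFV1, of complexes II and I, were called higher at passage 4 (1.28 and 0.74; 1.05 and 0.49 kind-adjusted) and ATP5I, of the ATP synthase, higher in regenerated cells (-2.35; -1.34 adjusted), each lost in 4 of the 6 fits that left out an array (adjusted p up to 0.0976). Of 29 glycolysis and hypoxia genes, ADM alone was called. Of 18 genes of cholesterol synthesis and uptake, ACAT2, which starts the pathway, was called at 0.80 (0.46 adjusted), lost without passage 4 array 2 or 3 (adjusted p 0.0644 and 0.0773). The list's median was -0.38 (-0.53 kind-adjusted) and 14 of its 18 genes were lower at passage 4.

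Of 38 ER folding and heat shock genes, 5 were called higher in regenerated cells (4.88% of all genes), with a median of -0.12 that became 0.06 with the kind adjustment. HSPB8, a chaperone of damaged protein in muscle and vessel cells, gave 60.2, 41.4 and 82.6 at passage 4 and 541, 295 and 404 in regenerated cells (-2.46 ± 0.37, adjusted p 0.0030; -1.97 kind-adjusted). HSPB6, HSPB2, HSPA2 and the HSPB8 partner BAG3 were also called, at -1.71, -0.85, -1.01 and -0.71 (-2.39, -0.28, -1.34 and -0.40 kind-adjusted), and lost their calls in 5, 6, 4 and 3 of the 6 fits (adjusted p up to 0.156). The other BAG3 probe set was at 0.70. In limma 0 of the 38 were called higher at passage 4, where 4 had an unadjusted p under 0.05 (14.5% of all genes). Smooth muscle also expresses HSPB6 and HSPB8. Of 17 measured smooth muscle markers, 3 were called higher in regenerated cells and 0 higher at passage 4. On average 5 of the 17 were higher at passage 4. The part of smooth muscle cells in these calls was not tested.

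Among immediate early genes, FOSL2, a Fos-family factor, stood at 407, 359 and 344 against 751, 1168 and 1591 (-1.56 ± 0.27; -0.97 kind-adjusted). ZFP36, PPP1R15A and DUSP1 were called in the same direction (-1.39, -1.03 and -0.55) and IER3 in the other (0.61), and these 4 were lost in 2, 6, 5 and 3 of the 6 fits (adjusted p up to 0.174). Among antioxidant genes SOD3, the secreted superoxide dismutase, stood at 155, 36.9 and 43.6 against 292, 324 and 462 (-2.18 ± 0.51; -3.26 kind-adjusted), lost in 4 of the 6 fits (adjusted p up to 0.0761). Transporter genes had 5 calls of 26, where 10.7% of all genes were called. SLC29A1, which carries nucleosides, was higher at passage 4, at 246, 208 and 220.4 against 110.5, 32.4 and 38.2 (1.80 ± 0.36; 1.72 adjusted), and so was SLC25A5, the mitochondrial ADP/ATP carrier (0.59; 0.48 adjusted), which lost its call with median centring (0.47). SLC45A3 and SLC7A7 were called toward regenerated cells (-1.15 and -0.76) and lost in all 6 fits (adjusted p up to 0.178). KRT8, a keratin of simple epithelia, was higher at passage 4, at 744, 230.3 and 605 against 107, 52.4 and 122, with 801, 2080.0 and 452 at passage 1. Its difference of 2.21 was lost without passage 4 array 1 or 3 or regenerated array 2 (adjusted p up to 0.0913), and EPCAM and CDH1 did not exceed 29.7 on any of the 6 arrays.

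Ribosomal RNA and some spike-ins also separated the arrays. The 28S rRNA probe set gave 8902 ± 1082 (SD) at passage 4 and 2548 ± 972 in regenerated cells, with 1349 to 5837 at passage 1. The mean signal of the spike-ins lys and phe was 284 to 310.0 at passage 4 and 481 to 827 in regenerated cells.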
